A study of Zea mays with 2 samples.

Results

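Precise narrow sites are merged MH-seq peaks under 130 bp wide whose summit, the base of highest signal, has a summit of the replicate 1 list and a summit of the replicate 2 list within 20 bp. There were 5268 of them, 7.89% of the 66801 merged peaks and 34.7% of the 15198 merged peaks under 130 bp (Wilson 95% interval 33.9 to 35.4%). They were set against the other 9930 narrow merged peaks. The sites were chosen by their measured widths and summit positions, so both, and every measure of strength from the same peak lists, are given as descriptions without a test. Position along the chromosome and distance to other peaks were not used to choose them and were tested. Wilson intervals in the text cover counting error only.

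Micrococcal nuclease (MNase) cuts DNA that is not protected by nucleosomes or other bound proteins and then trims the freed ends back to whatever still covers them. MH-seq sequences the short fragments released by a limited digestion, which are too small to carry a whole nucleosome. In plants such fragments pile up in open chromatin, including promoters and distal regulatory DNA, and transcription factors bound there can protect short stretches of DNA from the enzyme. MNase also cuts A/T-rich DNA by preference.

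Both libraries come from leaf of the maize (Zea mays) inbred B73 at 10 days of age, fixed with 1% formaldehyde, and from nuclei digested with 100 U of MNase. Fragments of 40 to 100 bp were recovered, and leaf was pooled from 10 plants, so variation between plants cannot be seen. The labels name the tissue as leaf and the source as seedling, and leave unstated whether each replicate was collected separately, so differences between them may be technical. With no naked-DNA or undigested library analysed here, no comparison of conditions was possible. All positions are 1-based on B73 RefGen_v4, and no gene annotation or sequence of that build was used.

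The lists hold no read counts, but the number of reads or fragments over each summit (the pileup) could be solved from the deposited fold enrichment and p-value. A whole-number pileup and a local background fitted both values, to within 0.001 of the −log10 p, for all but 3 merged, 1 replicate 1 and 1 replicate 2 peaks. The lowest local background, which under default MACS2 settings is the genome-wide mean, was 1.78 in replicate 1 and 1.80 in replicate 2 (mean 1.79 ± 0.0154, SD, n = 2). It was 3.48 for the merged list. By this measure the libraries had nearly equal depth, and the merged list stood at 97.2% of their sum. The weakest peaks rested on a pileup of 13 in replicate 1, of 14 in replicate 2 and, for the merged list, of 22.

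Precise narrow sites were wider and stronger than the other narrow peaks. Their median width was 104 bp (interquartile range 95 to 116 bp), against 93 bp (83 to 104 bp) for the others. In the 1089 other narrow peaks that overlapped a peak of both replicates the median width was 102 bp. Only 41.4% of precise sites had a width within the 40 to 100 bp of the recovered fragments, against 70.3% of all other narrow peaks. The precise share of narrow peaks was 2.17% (1 of 46) among those of 50 to 59 bp, 18.0% among those of 80 to 89 bp and 54.6% among those of 120 to 129 bp. No peak under 50 bp was precise, in classes of only 3 and 10 peaks.

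**Figure D1:**
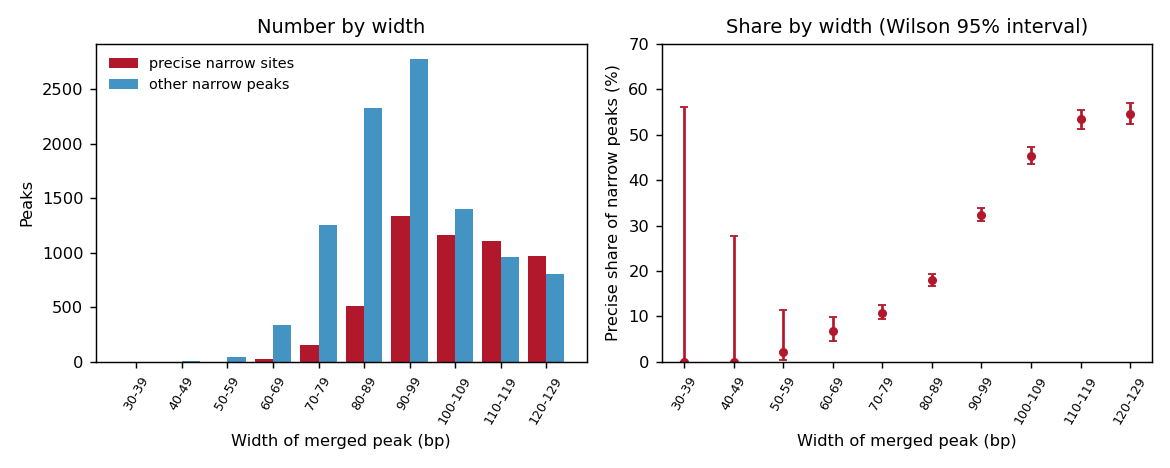
Left, number of precise narrow sites and of other narrow peaks per 10 bp of merged peak width; right, the precise share of narrow peaks in each class in percent, with Wilson 95% intervals. Both classes are most numerous at 90 to 99 bp, while the share goes up to 54.6% at 120 to 129 bp.

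The median fold enrichment over local background was 7.14 in precise sites, with a range of 5.00 to 87.1, against 5.51 and 5.00 to 23.5 in the other narrow peaks. A fold enrichment of 10 or more was found in 765 precise sites (14.5%) and in 107 other narrow peaks (1.08%). At the weak end, 18.0% of precise sites and 74.1% of the others lay under 6. The median pileup was 56 in precise sites and 33 in the others, and the median −log10 q was 29.1 and 14.7. The 2 classes therefore overlapped in strength. Their upper tail was made up almost wholly of precise sites: 30 of them and 2 other narrow peaks reached a fold enrichment of 20. Of the 51603 wider peaks 502 did so, 30.5% reached 10, and the median was 8.20. Precise sites were thus the stronger class among narrow peaks only. The 1089 other narrow peaks overlapped by both replicates had a median fold enrichment of 6.60 and a median pileup of 48. Both values were nearer to those of precise sites than to those of the other narrow peaks as a whole.

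The local background was also higher at precise sites, with a median of 6.48 against 4.75 at the other narrow peaks. It stood at its lowest value, meaning no local excess, at 13.6% of precise sites and at 27.5% of the others. Whether a site's own signal enters this background is not stated. Summits were central: 90.2% of precise sites (Wilson 95% interval 89.4 to 91.0%) and 77.6% of the other narrow peaks (76.8 to 78.5%) had their summit in the central 33.3% of the peak.

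Most narrow peaks outside the class failed because a replicate had no peak there, not because a summit lay elsewhere. Of the 9930, 5683 were overlapped in replicate 1 but not in replicate 2, 2199 in replicate 2 but not in replicate 1, and 959 in neither. The remaining 1089 overlapped peaks of both replicates but missed the 20 bp limit, and in all but 81 of these only a single replicate summit lay beyond it (replicate 1 in 501, replicate 2 in 507). All 5268 precise sites overlapped a peak of both replicates.

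Membership followed the pileup. A merged peak that is the plain sum of a minimal peak in each replicate would have a pileup of 27. Of the precise sites 56 (1.06%) lay below that sum, against 3041 (30.6%) of the other narrow peaks. Among the 12101 narrow peaks at or above it, 43.1% were precise. In pileup classes the precise share was 1.81% (1.40 to 2.34%) up to 26, 15.4% at 27 to 30, 29.2% at 31 to 40, 41.1% at 41 to 50, 50.5% at 51 to 60, 60.4% at 61 to 80 and 74.7% (72.4 to 77.0%) from 81 upwards.

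Peaks of 130 bp or more showed a similar course, with both summits within 20 bp in 2.09% up to a pileup of 26 and in 65.6% from 81 upwards. Once both replicates had a peak, narrow and wider peaks differed more. Of those overlapped by both, 59.6% of narrow peaks in the lowest class and 89.2% in the highest had both summits within 20 bp, against 15.4% and 68.1% of wider peaks. The median distance between replicate summits in these classes was 21 and 8 bp in narrow peaks and 56 and 12 bp in wider ones. A narrow peak leaves less room for summits to lie apart, so the 2 width classes are not on an equal footing here.

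**Figure D2:**
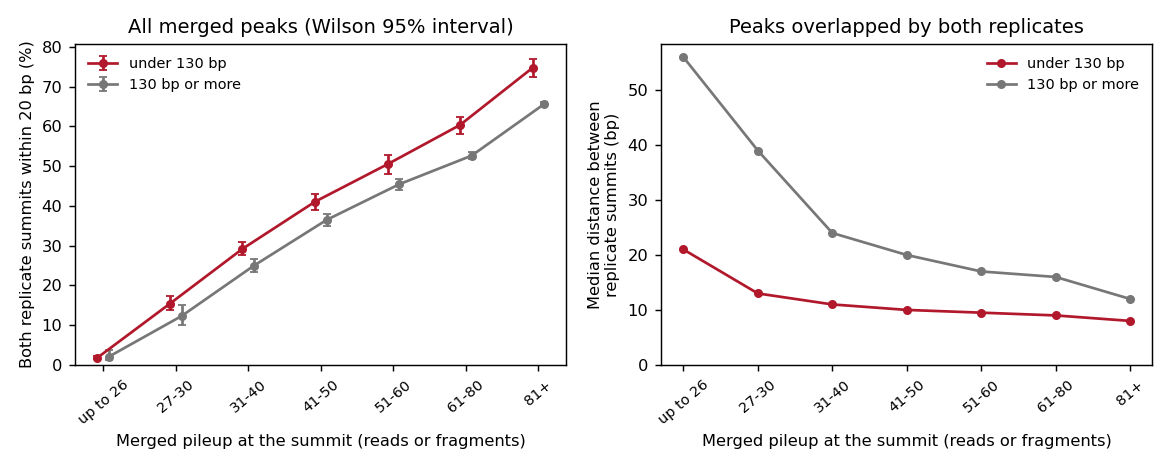
Left, percent of merged peaks with both replicate summits within 20 bp, by merged pileup, for peaks under 130 bp (the precise narrow sites) and for wider peaks, with Wilson 95% intervals; right, median distance in bp between the replicate summits of peaks overlapped by both replicates. The share in narrow peaks goes up to 74.7% in the highest class, and their summits lie closer together than those of wider peaks in every class.

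Within the 20 bp allowed, summits crowded at the merged base. The replicate 1 summit was at exactly that base in 1475 precise sites (28.0%) and the replicate 2 summit in 1467 (27.8%). Among the other narrow peaks the replicate 1 summit was there in 2006 and the replicate 2 summit in 894. Over all narrow peaks, precise sites included, 10932 had a replicate 1 summit within 20 bp and 7792 a replicate 2 summit. With the 5268 precise sites set aside, exact matches made up a larger share of such summits in the other narrow peaks than in precise sites. This crowding was therefore not particular to precise sites. All 3 lists placed the summit at a single base in 226 sites (4.29%), and at least 1 replicate matched the merged base in 2716 (51.6%). The merged list was named by the authors as that of both replicates, so a match of a replicate with it is not an independent repeat.

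The distance between the summits of the replicates themselves had a median of 8 bp (interquartile range 3 to 14 bp, highest 38 bp). The replicate summits fell on opposite sides of the merged summit in 1939 sites and on the same side in 613. They were more than 20 bp from each other in 298 sites (5.66%), which the rule allows because it measures each from the merged summit. The mean offset from the merged summit came to −0.27 bp for replicate 1 and −0.38 bp for replicate 2. The rule keeps only offsets within 20 bp on either side, which limits how large these means can be.

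**Figure D3:**
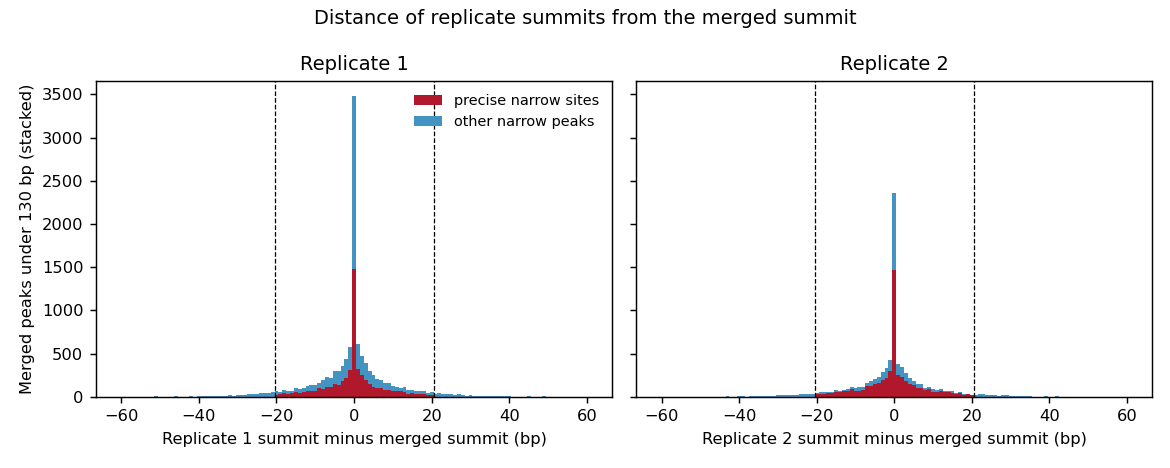
Replicate summit minus merged summit in bp, for replicate 1 and replicate 2, as counts of merged peaks under 130 bp stacked by class; dashed lines mark the 20 bp limit. The tallest bar in both panels is at 0 bp, where the 2 replicates have 1475 and 1467 precise sites.

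Values just inside and just outside the limits were close. The 220 narrow peaks whose farther replicate summit lay 19 to 20 bp away had a median fold enrichment of 6.92 and a median pileup of 52.5. The 168 just outside, at 21 to 22 bp, had 6.77 and 50. At the width limit, 183 sites of 128 to 129 bp had a median fold enrichment of 8.08, and 187 peaks of 130 to 131 bp with equally close summits had 7.59. Sites with both summits within 5 bp (2145) had a median fold enrichment of 7.37, against 6.92 in the 1694 whose farther summit lay 11 to 20 bp away.

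At most precise sites the peaks of both replicates were narrow, and their edges were often, but not always, close. The peak at the site was narrow in both replicates in 4806 cases (91.2%), wider in replicate 1 alone in 305, in replicate 2 alone in 109 and in both in 48. The median difference between replicates was 5 bp at the start and 5 bp at the end, and both edges agreed to within 10 bp in 2606 sites (49.5%). Start and end were identical in 165 sites. The peak of replicate 1 was the wider in 3437 sites (65.2%), with medians of 96 bp for replicate 1 and 90 bp for replicate 2.

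Replicate 1 had more signal at precise sites, while the lowest backgrounds of the libraries were nearly equal. Summed over the 5268 sites the pileup was 200040 in replicate 1 and 168894 in replicate 2, a ratio of 1.18, while the ratio of the lowest backgrounds was 0.988. The local background at the sites themselves had a median of 3.37 in replicate 1 and 3.30 in replicate 2. The replicate 1 pileup was the higher at 3482 sites (66.1%), with medians of 33 in replicate 1 and 28 in replicate 2. The median fold enrichment was 7.16 in replicate 1 and 6.43 in replicate 2.

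The same imbalance was present outside the class. Where both replicates had a peak, the ratio of summed pileups was 1.21 in the 1089 other narrow peaks and 1.24 in 44745 wider peaks. Single sites scattered around the common ratio: the replicate 1 share of the 2 pileups had an SD over sites of 6.53 percentage points, and binomial counting error alone gives 6.57. Because a site must be called in both replicates, very uneven sites are missing from this spread. The share ran from 17.9 to 81.2%, and 64 sites had at least 2 times the fold enrichment in replicate 1, against 6 with at least 2 times in replicate 2.

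The merged pileup was never above the sum of the replicate pileups and was usually below it. At precise sites its median was 90.2% of the sum (interquartile range 86.8 to 93.3%), compared with 97.2% for the lowest backgrounds, and it equalled the sum at 118 sites. The share was lower at higher sites: the median was 93.5% where the sum was at most 40, 86.1% at 101 to 150 and 65.2% in the 10 sites above 300. Wider peaks with equally close summits had 93.9% in the lowest class and 79.3% in the highest. Each list's pileup is that at its own summit, but at the 226 sites where all 3 summits share a base the median was also low, at 90.6%. The labels do not say how the libraries were merged, and the cause of this shortfall was not tested.

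**Figure D4:**
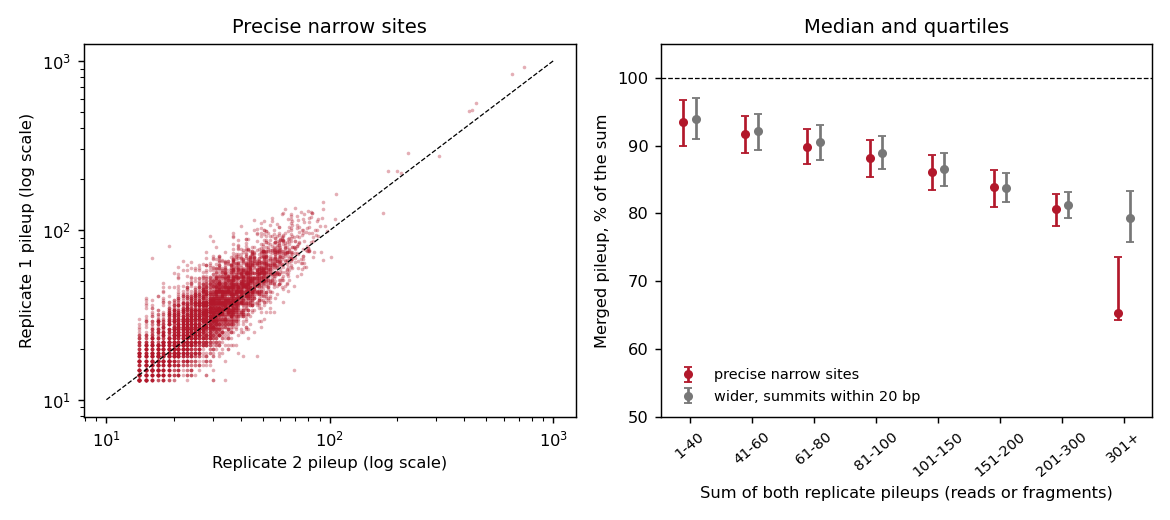
Left, pileup of each precise narrow site in replicate 1 against replicate 2, on log axes, with the line of equal values dashed; right, merged pileup as a percent of the summed replicate pileups, by that sum, as median and quartiles for precise narrow sites and for wider peaks with summits within 20 bp. Most points lie above the line, and the merged share drops to 65.2% in the 10 precise sites above 300.

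The strongest precise site lay on chromosome 7 at chr7:46267171-46267296 (126 bp). Its fold enrichment was 87.1 merged, 85.7 in replicate 1 and 83.7 in replicate 2, on pileups of 1016 merged, 916 in replicate 1 and 742 in replicate 2. All 3 lists placed its summit at base 46267237. It ranked 2 among all 66801 merged peaks and had 2 precise neighbours, at chr7:46267974-46268066 (93 bp, merged fold enrichment 21.9) and at chr7:46268529-46268609 (81 bp, 5.57).

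These 3 sites, with summits 783 and 549 bp apart, were placed almost identically in every list. Each had its summit at the same base in every list, and their widths differed between the replicates by at most 2 bp. They shared one local background, of 10.7 merged, 9.70 in replicate 1 and 7.88 in replicate 2. Their merged pileup was 61.3%, 59.9% and 58.7% of the replicates' sum, the last being the lowest value among all precise sites.

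The second strongest site, at chr2:98044354-98044445 (92 bp), had fold enrichments of 38.1 merged, 46.1 in replicate 1 and 38.5 in replicate 2. The third, at chr2:66783889-66784009 (121 bp), had 35.3 merged, 25.5 in replicate 1 and 36.4 in replicate 2, and its replicate 1 summit lay at −15 bp from the merged one. The fourth, at chr1:210299816-210299932 (117 bp), had 31.7 merged, 35.3 in replicate 1 and 29.3 in replicate 2. Of these 3 sites, the third was the only one with a higher value in replicate 2.

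The fifth strongest, at chr2:176915714-176915839 (126 bp), belonged to a group of 4 precise sites within 3478 bp. Its fold enrichment was 30.3 merged, 30.5 in replicate 1 and 29.7 in replicate 2, on a merged pileup of 954. The other 3 had merged pileups of 658, 330 and 618. A wider peak of 139 bp with a pileup of 1152 lay among them, and the merged peak with the highest fold enrichment of all, 172 bp wide, had its summit 5864 bp from the first of them. All 4 stood on a local background of 30.5 to 30.7, against the median of 6.48 over precise sites.

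The remaining 5 of the 10 strongest were on chromosomes 4, 3, 6, 5 and 6. The site at chr4:192782870-192782995 (126 bp) had 25.8 merged, 21.2 in replicate 1 and 27.8 in replicate 2, with a single summit base in all lists. The site at chr3:20318201-20318326 (126 bp) had 25.7 merged, 25.2 in replicate 1 and 22.8 in replicate 2, and also a single summit base. Its replicate 1 peak was 132 bp wide, so it counted as narrow in the merged and replicate 2 lists only.

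On chromosome 6, chr6:89561112-89561228 (117 bp) had 25.6 merged, 31.1 in replicate 1 and 20.6 in replicate 2. The site at chr5:200461545-200461641 (97 bp) had 25.4 merged, 24.8 in replicate 1 and 21.1 in replicate 2. The tenth, at chr6:106851576-106851693 (118 bp), had 23.9 merged, 21.9 in replicate 1 and 26.1 in replicate 2. Of the 10 sites, 7 had the higher fold enrichment in replicate 1 and 3 in replicate 2, and 9 had both replicate summits within 10 bp of the merged one.

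On the 3 chromosomes without a site among those 10, the strongest were weaker. Chromosome 8 had chr8:177444178-177444306 (129 bp), with a fold enrichment of 21.6 merged, 21.4 in replicate 1 and 22.6 in replicate 2. Chromosome 9 had chr9:149163545-149163666 (122 bp), with 20.8 merged, 19.1 in replicate 1 and 16.4 in replicate 2. Chromosome 10 had chr10:67921817-67921932 (116 bp), with 17.2 merged, 19.9 in replicate 1 and 16.4 in replicate 2. The chromosome 10 site was the only one of these 3 with a single summit base in all lists, a feature it shared with chr7:175265131-175265258 (128 bp), which had 19.8 merged, 20.2 in replicate 1 and 19.6 in replicate 2.

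The narrowest precise sites were weak. The narrowest, at chr6:10371582-10371640 (59 bp), had a fold enrichment of 6.65 on merged, replicate 1 and replicate 2 pileups of 29, 14 and 17. The next 4, on chromosomes 8, 10, 1 and 10, were 61, 63, 64 and 64 bp wide, with merged fold enrichments of 7.59, 6.47, 6.70 and 6.03. All 5 rested on a merged pileup of at most 33, where the least in that list was 22.

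Strong narrow peaks could also miss the rule. The strongest, at chr1:457302-457420 (119 bp), had a fold enrichment of 23.5 merged, but the replicates held peaks of 383 bp (replicate 1) and 381 bp (replicate 2) there, with summits at −148 and −149 bp, next to a wider merged peak. At chr6:5318176-5318289 (114 bp) the fold enrichment was 20.1 merged and 20.0 in replicate 1, whose summit was at the merged base, while the nearest replicate 2 summit lay at −21377 bp. At chr6:143657500-143657620 (121 bp) it was 18.5 merged, 22.8 in replicate 1 and 16.6 in replicate 2, with a replicate 2 summit at −26 bp.

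Precise sites were spread evenly between chromosomes and unevenly within them. Their number per Mb was 2.51 ± 0.145 (mean ± SD over 10 chromosomes), and the precise share of narrow peaks was 34.8% ± 2.13, from 32.6% on chromosome 6 to 38.5% on chromosome 10. The outer 20% at each chromosome end had a mean of 3.33 ± 0.371 precise sites per Mb, and the middle 20% had 1.81 ± 0.489. By decile of chromosome length the density was lowest in decile 4, at 1.24 ± 0.483 per Mb, and highest in decile 10, at 3.97 ± 0.657 per Mb. The precise share of narrow peaks was 28.9% in decile 4 and 37.2% in decile 10.

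The excess at the chromosome ends was larger in precise sites than in the other narrow peaks, and similar to that of wider peaks. The log2 ratio of end to middle density was 0.91 ± 0.39 in precise sites and 0.65 ± 0.31 in the other narrow peaks (mean ± SD over 10 chromosomes). In wider peaks, which were not part of the test, it was 0.93 ± 0.31. The difference between precise sites and the other narrow peaks was 0.26 ± 0.22, or 1.20-fold. It was positive on 9 of 10 chromosomes (exact two-sided sign-flip permutation p = 0.00391, adjusted 0.00586 over 3 tests). It was largest on chromosome 1, at 0.67, and absent on chromosome 6, at −0.0019. The call was lost in the same exact test within 5 groups of similar fold enrichment (0.12, adjusted p = 0.437), within groups of width or local background, with wider chromosome parts, and with replicate 2 left out (0.07, adjusted p = 0.441). The sign turned within groups of similar pileup (−0.29, adjusted p = 0.0508 in the exact test) and against the 1089 other narrow peaks that both replicates overlap (−0.16, adjusted p = 0.354).

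**Figure D5:**
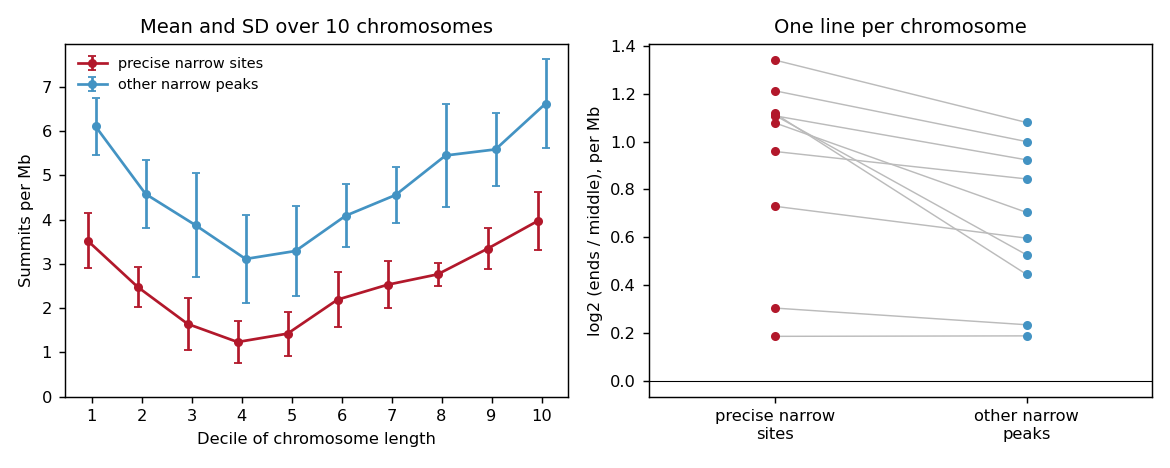
Left, summits per Mb by decile of chromosome length for precise narrow sites and other narrow peaks, as mean and SD over 10 chromosomes; right, log2 ratio of density in the outer 20% at each end to the middle 20%, with a line for each chromosome. Both classes are sparsest in decile 4, and the ratio is higher in precise sites on 9 of 10 chromosomes.

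Precise sites as a class lay closer to other peaks than the other narrow peaks did, but not at equal pileup. The median distance to the nearest other merged summit, taken over all sites, was 1899.5 bp for precise sites and 2582.5 bp for the other narrow peaks. Per chromosome the log2 median was 10.87 ± 0.31 in precise sites and 11.35 ± 0.30 in the others, a difference of −0.48 ± 0.35, or 0.719-fold. It was negative on 10 of 10 chromosomes (exact two-sided sign-flip permutation p = 0.00195, the smallest possible, adjusted 0.00586). The direction turned within groups of similar pileup, to 0.56 on the log2 scale (adjusted p = 0.00879 in the exact test), and against the other narrow peaks that both replicates overlap, to 0.63 (adjusted p = 0.0352). It turned to 0.34 (adjusted p = 0.108, exact) with replicate 2 left out, so that a replicate 1 summit alone was required, and the call was lost within groups of width or local background.

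At 1 kb the main comparison did not pass the test, while some alternatives did. A neighbour within 1 kb was found for 39.1% ± 2.86 of precise sites and 37.6% ± 1.63 of the other narrow peaks (mean ± SD over 10 chromosomes). The difference of 1.59 ± 2.99 percentage points was positive on 8 of 10 chromosomes (exact two-sided sign-flip permutation p = 0.117, adjusted 0.117). It was −4.33 points within groups of similar pileup (adjusted p = 0.00879 in the exact test). Against the 1089 other narrow peaks that both replicates overlap it was −7.85 points (adjusted p = 0.0234, exact sign-flip). When a single replicate was required it passed with opposite signs: 4.54 points without replicate 1 (adjusted p = 0.00781, exact) and −4.98 points without replicate 2 (adjusted p = 0.00586, exact). Within 5 kb the difference was 8.12 percentage points (adjusted p = 0.00293, exact sign-flip), with 64.2% of precise sites and 56.4% of the others pooled over chromosomes. The nearest summit lay 1001 to 2000 bp away in 11.7% of precise sites and 9.94% of the others, and 2001 to 5000 bp away in 13.4% and 8.80%.

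The nearest peak of a precise site was a wider peak in 69.5% of cases and another precise site in 11.8%. For the other narrow peaks these shares were 69.3% and 10.6%, and for wider peaks they were 79.6% and 7.44%. Of all merged peaks, 77.2% were wider peaks and 7.89% were precise sites. Distances under 100 bp were rare, with 3 precise sites and 26 other narrow peaks having a summit at up to 100 bp. Among precise sites the median distance was 1654 bp at a fold enrichment under 7, 2021.5 bp at 7 to 10 and 3687 bp at 10 or more. The share with a neighbour within 1 kb differed little between these classes, at 40.1%, 38.6% and 37.6%. Fold enrichment is measured against a local background, and what enters that background is not stated. If nearby signal does, fold enrichment is not independent of the distance to other peaks, which was not tested.

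Most precise sites had no other precise site within 5 kb. There were 4617 such sites, 269 pairs, 25 groups of 3, 7 groups of 4 and 2 groups of 5. Of the groups of 5, one spanned 8227 bp near the start of chromosome 1, at chr1:15993-24219, with merged fold enrichments of 7.39 to 12.4. The other spanned 2930 bp at chr8:177441740-177444669, with 6.49 to 21.6, and contained the strongest precise site of chromosome 8.

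At the isolated end, 248 precise sites (4.71%) and 608 other narrow peaks (6.12%) had no other merged summit within 50 kb. The strongest isolated precise site, at chr2:157860182-157860291 (110 bp), had a fold enrichment of 19.4 merged, 23.4 in replicate 1 and 12.9 in replicate 2, and its nearest summit was 66778 bp away. In windows of 1 Mb the median number of precise sites was 2, and 317 of 2111 windows (15.0%) had none. The fullest window, on chromosome 5 from 200000001 to 201000000, held 14 precise sites among 27 narrow peaks. The next held 13 of 24 narrow peaks, on chromosome 8 from 177000001 to 178000000.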

How the data were processed

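MH-seq of B73 leaf was analysed from 3 deposited peak lists (replicate 1, replicate 2 and merged). The submitters' processing notes name, without roles, MACS2, Bowtie2, fastp 0.20.0, SAMtools 1.5, deepTools and ChIPseeker, and the build B73 RefGen_v4. Their settings and the making of the merged list are not given there. The authors deposited for each peak a fold enrichment ratio, −log10 p and −log10 q, a score (not used further) and a summit. The members and lists were chosen with earlier results of these data known.

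A pileup n and local background b were solved for each peak from the deposited fold, taken as (n + 1)/(b + 1), and the deposited −log10 p, taken as a Poisson upper tail; this step was chosen after seeing the data. They fitted 99.9955% of merged, 99.9987% of replicate 1 and 99.9983% of replicate 2 peaks. Whether n counts reads or fragments is not known, and the formula is an inference from the values. The last peak end on a chromosome served as its length. Position and neighbours were compared by exact two-sided sign-flip tests over 10 chromosomes (smallest p 0.00195), with Benjamini-Hochberg adjustment over 3 tests. Chromosomes of one merged list are not biological replicates, so these p-values measure spread between chromosomes.

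The sites named are the 10 strongest by merged fold enrichment, the strongest on each chromosome, the 5 narrowest, the 5 strongest with one summit base in all lists and the 3 strongest narrow peaks that are not precise. Groups within 5 kb, isolated sites, the surroundings of the strongest sites, 1 Mb windows and classes of pileup and width were chosen after their values were seen. Base composition at summits was planned and not run, since no genome of the same build was at hand. Python 3.11.15, numpy 2.4.6, pandas 2.3.3 and scipy 1.17.1 were used, and the procedures were tested on simulated peaks.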

Additional observations from a re-analysis of the deposited data

How the results depend on the processing

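The number of precise narrow sites, 5268, was 3190 with a width limit of 110 bp, 1156 with a −log10 q of at least 20 in all 3 lists, and 7792 to 10932 when a summit of a single replicate was required; under the other 6 alternatives it ranged from 3574 to 7090. Of the 3 tested differences (precise minus other narrow), the end-to-middle log2 difference of 0.26 lost its call within 5 groups of fold enrichment (0.12), width (0.092) or local background (0.099) and with the outer 30% and middle 40% (0.17), turned to −0.29 within groups of pileup and −0.16 against narrow peaks overlapped by both replicates, ran from 0.069 to 0.29 with either replicate left out, and kept its call under 7 of 14 alternatives. The 1 kb neighbour difference of 1.59 points passed the threshold with summits within 10 bp (2.25) and a width limit of 110 bp (3.47). It also passed with a reach of 5 kb (8.12). It turned to −0.083 within groups of fold enrichment, −0.58 of width and −0.71 of local background, and to −0.36 at 500 bp. It turned and passed within groups of pileup (−4.33) and against peaks overlapped by both replicates (−7.85). It passed with opposite signs without replicate 1 (4.54) and without replicate 2 (−4.98). The log2 distance difference of −0.48 lost its call within groups of width (−0.085) or local background (−0.048), turned to 0.56 within groups of pileup and 0.63 against peaks overlapped by both replicates, ran from −0.91 to 0.34 with either replicate left out, and kept its call under 8 of 13. The groups of pileup, width and local background were chosen after seeing the data; the cause of each change was not tested. No analysis paired by sample was possible because there is only 1 group of samples, and the tests were paired by chromosome. Near a pileup of 27 a site can miss the class because one replicate's list holds no peak, so absence from the class does not show absence of a precise summit.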
